A study of Homo sapiens with 160 samples.

Results

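Mometasone furoate, a glucocorticoid, was added to human airway epithelial cells that were also given indacaterol and carbachol, and RNA was sequenced after 6 h. The comparison holds 10 libraries of 160 in the series: 5 from cells given 100 nM mometasone furoate, 100 nM indacaterol and 10 µM carbachol together (MF+Ind+CCh), and 5 from cells given 100 nM indacaterol and 10 µM carbachol without the steroid (Ind+CCh). Libraries were chosen by these column headings and by the time of 6 h, and were set against each other by replicate number. The cells were BEAS-2B, an established, immortalised line from human bronchial epithelium with wild-type genotype per the labels, grown to confluence and kept overnight without serum before treatment. For reference, the same steroid was examined without the agonists, in 5 libraries with 100 nM mometasone furoate alone (MF) and 5 with vehicle (NS), also at 6 h. Cells given indacaterol alone or carbachol alone, each with and without mometasone at these doses, were used too, with 5 libraries a group at 6 h. Earlier and later samples of the 2 compared groups were taken at 1, 2 and 18 h. Nothing in the labels says that the 5 replicates of a group were separate cultures, so a p-value reflects only how far these libraries scatter, and that scatter may be of technical origin.

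Glucocorticoids such as mometasone enter the cell and bind the glucocorticoid receptor, the product of NR3C1, which moves to the nucleus, raises genes next to its DNA elements and lowers many inflammatory genes. Indacaterol is a long-acting agonist of the beta-adrenoceptor that raises cyclic AMP, and carbachol is an agonist of muscarinic acetylcholine receptors, which signal through calcium and protein kinase C. Inhaled steroids and long-acting beta-agonists are given together in asthma, and the airway epithelium is one of their target tissues. The comparison asks what a steroid adds when both kinds of receptor are already stimulated.

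Promoter sequences are shown for 3 genes that the results return to, TSC22D3 as the gene with the largest rise, and F3 and IL11 as a coagulation and a cytokine gene that fell. Each window runs from 250 bases before to 50 after an annotated start, on the minus strand, from RefSeq on GRCh38.p14, and capitals mark the motif named. The TSC22D3 window lies at chrX:107775738-107776037 and holds the core of a glucocorticoid response element, ACANNNTGT, 208 bases before the start. A second TSC22D3 start in the table has an overlapping window with the same element 7 bases before it. The TSC22D3 windows at chrX:107717013-107717312 and chrX:107716459-107716758, of other annotated starts, hold no such core. Which start was used in these cells was not tested. The F3 window, chr1:94541710-94542009, holds 2 copies of the AP-1 element TGANTCA, 223 and 210 bases before the start. The IL11 window, chr19:55370414-55370713, holds 1 copy, 96 bases before the start.
TSC22D3: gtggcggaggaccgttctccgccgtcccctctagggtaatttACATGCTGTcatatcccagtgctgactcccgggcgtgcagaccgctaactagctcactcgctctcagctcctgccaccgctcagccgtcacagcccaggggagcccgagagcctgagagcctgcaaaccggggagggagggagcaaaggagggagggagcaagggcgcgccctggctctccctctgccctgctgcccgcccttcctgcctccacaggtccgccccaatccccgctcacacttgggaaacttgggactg
F3: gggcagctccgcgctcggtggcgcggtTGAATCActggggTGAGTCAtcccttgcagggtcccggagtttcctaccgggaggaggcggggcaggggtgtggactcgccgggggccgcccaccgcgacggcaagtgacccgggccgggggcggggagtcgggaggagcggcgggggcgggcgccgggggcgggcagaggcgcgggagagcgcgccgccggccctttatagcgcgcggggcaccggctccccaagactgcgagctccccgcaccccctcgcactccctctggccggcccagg
IL11: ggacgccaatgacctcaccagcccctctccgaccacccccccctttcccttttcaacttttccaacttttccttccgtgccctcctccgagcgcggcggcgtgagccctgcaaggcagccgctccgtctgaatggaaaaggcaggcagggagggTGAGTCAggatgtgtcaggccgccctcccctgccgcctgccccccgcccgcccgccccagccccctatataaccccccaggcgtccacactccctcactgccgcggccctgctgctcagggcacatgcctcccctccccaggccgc

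These matches are letters and not shown sites of binding. In all, 4 motifs were searched on both strands, these and a cyclic AMP response element and an NF-kB element. The NF-kB element occurs in 30.9% of the windows of genes tested, in 30.5% of those called higher and in 31.9% of those called lower. For the cyclic AMP response element these shares were 2.8%, 2.5% and 3.0%. The glucocorticoid response element core occurs in 5.37% of all 35116 promoter windows in the table and in 3.08% of the 14609 windows of genes tested here. It occurs in 3.82% of the windows of genes called higher with mometasone and in 3.83% of those called lower, so its share was almost alike in both directions. The AP-1 element occurs in 7.71% of all windows, in 4.96% of the windows of genes tested, in 6.04% of those of genes called higher and in 6.42% of those called lower. A window was found for 12 of the 16 most raised and 6 of the 12 most lowered genes named below. Of the 22 windows of the raised genes, 2 hold the glucocorticoid core, and both belong to TSC22D3. Of the 6 windows of the lowered genes, 2 hold the AP-1 element, those of F3 and IL11.

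The libraries of both groups were alike in size and content. Summed values ran between 913462 and 1077687 in MF+Ind+CCh libraries and between 878947 and 1100523 in Ind+CCh libraries. Mitochondrially encoded genes held 8.20% to 16.6% of the sum in MF+Ind+CCh libraries and 7.45% to 14.7% in Ind+CCh libraries, and none of these 13 genes was called. Spearman correlations over genes were 0.968 to 0.991 within the MF+Ind+CCh group, 0.956 to 0.991 within the Ind+CCh group and 0.940 to 0.975 between them. The deposited values are already normalised and the reads behind them are not known, so precision is read from the spread of the 5 replicates. The values come from whole cultures, where fewer cells of a kind and less RNA per cell cannot be told apart.

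Adding mometasone changed the transcriptome in both directions. Of 12734 genes tested, 1566 were higher with mometasone (12.3%) and 1628 were lower (12.8%), by limma on log2(value + 1) with Benjamini-Hochberg adjusted p below 0.05. The median change over all genes tested was 0.0023 on the log2 scale. Rises were the larger changes: 267 genes rose at least 2-fold and 122 fell at least 2-fold. All 5 MF+Ind+CCh libraries lay above all 5 Ind+CCh libraries for 730 genes (5.73%), and all below for 644 (5.06%). In the same test without the replicate number as a block, 1661 genes were called, 865 higher and 796 lower, and all 1661 were among the first set. Counts of gene lists below are to be read beside the 12.3% of all genes that were higher and the 12.8% that were lower. For counts without the block, the calls over all genes are these 865 and 796 of 12734. Scaling every library to 1 sum gave 1087 higher and 1588 lower. Some genes reached the filter in 1 group only: 40 genes were at 1 or above in MF+Ind+CCh libraries and never in Ind+CCh libraries, and 15 the reverse. Fold changes and standard errors below were computed after 1 was added to each value, and so come out too small for genes with low values.

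The largest rise was that of TSC22D3, at chrX:107713221-107777342 on GRCh38, which encodes the glucocorticoid-induced leucine zipper GILZ, an anti-inflammatory protein. Its values were 676, 929.5, 617, 855 and 700.5 in the MF+Ind+CCh libraries, against 7.20, 8.42, 6.08, 7.63 and 4.74 in the Ind+CCh libraries. The lowest library with mometasone stood far above the highest without it. The change was 97.1-fold (log2 6.60 ± 0.0780 standard error, adjusted p = 4.74e-36, limma). FKBP5, a co-chaperone that restrains the glucocorticoid receptor, had values of 281, 283, 297, 265 and 244 in the MF+Ind+CCh libraries, against 24.5, 27.5, 25.9, 23.7 and 19.3 in the Ind+CCh libraries. Replicates were tight in both groups and the rise was 11-fold (log2 3.46 ± 0.0767, adjusted p = 1.43e-27). PER1, a repressor in the circadian clock, had 111, 104, 120.0, 153 and 127 in the MF+Ind+CCh libraries, against 14.9, 12.5, 10.5, 11.7 and 13.4 in the Ind+CCh libraries. These groups did not overlap either, with a rise of 9.10-fold (log2 3.19 ± 0.11, adjusted p = 4.14e-22).

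Genes that glucocorticoids are known to raise moved nearly as one. Of 35 genes on this list, 31 passed the filter, and 29 of these rose and 0 fell, where 12.3% of all genes rose. The list median was 2.37, against 0.0023 over all genes. Of the 31, 2 were at 1 or above in 1 group only, and so had to differ. The list was drawn from textbook targets and holds genes already known to respond in these samples, so its direction is no independent evidence. KLF15 and KLF9, transcription factors of the Krüppel-like family, rose by 3.17 ± 0.0902 and 1.95 ± 0.0839 on the log2 scale, and ZBTB16, a zinc finger repressor, by 2.42 ± 0.15. DUSP1, a phosphatase that switches off MAP kinases, had values of 183, 213, 254, 237 and 221 in the MF+Ind+CCh libraries, against 58.5, 64.4, 118, 72.6 and 68.9 in the Ind+CCh libraries, a rise of 2.95-fold. Its groups did not overlap, although the third Ind+CCh replicate stood above the other 4. SAMHD1, at -0.01, and RHOB, at -0.24, were the 2 measured members that were not called.

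**Figure D1:**
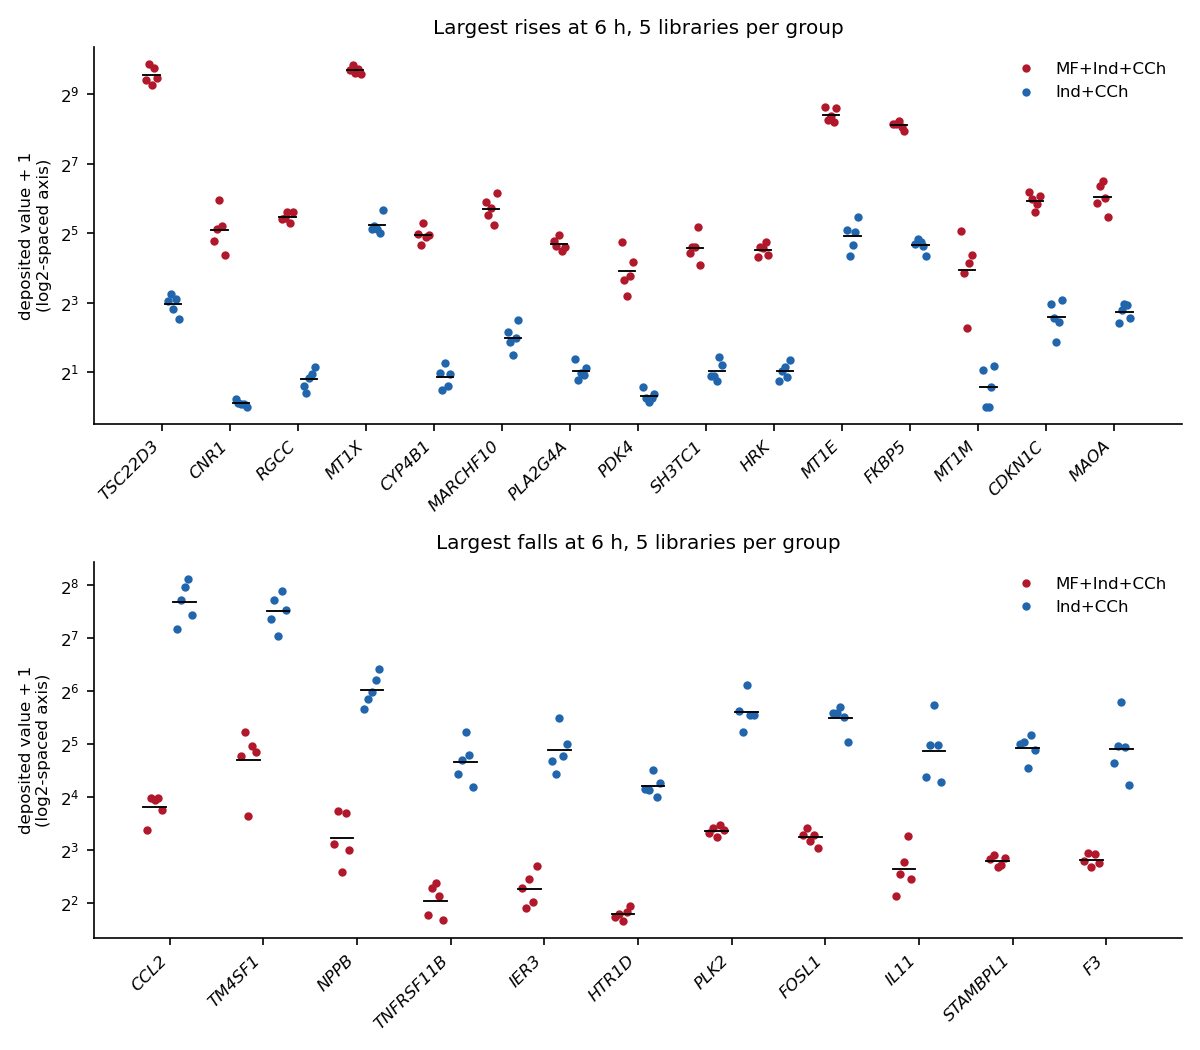
Deposited values plus 1 (log2-spaced axis) of 15 of the 16 genes with the largest rises (top) and 11 of the 12 with the largest falls (bottom) in the 5 MF+Ind+CCh libraries (red, left of each pair) and the 5 Ind+CCh libraries (blue). Each point is 1 library and each line the mean on the log2 scale. The groups do not overlap for any gene shown. The genes were picked for large changes with all 5 pairs in 1 direction, so this follows in part from the choice.

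Beyond the best known targets, the most raised genes came from several functions. CNR1, the cannabinoid receptor of the nervous system, had values of 26.2, 33.4, 60.8, 35.5 and 19.6 in the MF+Ind+CCh libraries, against 0.170, 0.0800, 0.0600, 0.05 and 0 in the Ind+CCh libraries. It was below 1 in every Ind+CCh library, and so had to differ, and the rise was 31.5-fold (log2 4.98 ± 0.19, adjusted p = 1.38e-20). RGCC, a regulator of the cell cycle, rose 25.7-fold, with 43.4 ± 4.28 in MF+Ind+CCh libraries and 0.750 ± 0.349 in Ind+CCh libraries (mean ± SD, n = 5 each). CYP4B1, a cytochrome P450 oxidase, averaged 30.1 ± 4.92 with mometasone and 0.840 ± 0.399 without it, a 17.1-fold rise. MARCHF10, a ubiquitin ligase of the MARCH family, rose 13.0-fold, SH3TC1 rose 11.7-fold, and MAOA, which breaks down monoamines, rose 9.92-fold. Adjusted p for these 5 genes was at most 1.56e-18 (limma).

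Metallothioneins, small proteins that bind zinc and copper, all rose where they were measured. Of 11 genes of the family 5 passed the filter, and 5 rose and 0 fell, with a median of 3.38. MT1X had values of 829, 918, 777, 848 and 769.6 in the MF+Ind+CCh libraries, against 33.7, 36.0, 34.0, 31.0 and 49.5 in the Ind+CCh libraries, a 22.2-fold rise (log2 4.47 ± 0.15, adjusted p = 1.31e-22). The fifth Ind+CCh replicate was the highest of its group, still far below any library with mometasone. MT2A had 5471, 5692, 6056, 5523 and 6252 in the MF+Ind+CCh libraries, against 665, 746, 727, 755 and 1360.0 in the Ind+CCh libraries, a 7.05-fold rise. MT1E rose 11.3-fold and MT1M 10.4-fold. MT1M varied most, between 3.85 and 32 with mometasone, and was listed at 0 in 2 of the 5 Ind+CCh libraries. These genes are close copies of each other, and the counting could divide their reads, so the split among them is uncertain.

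The largest fall was that of CCL2, at chr17:34255218-34257203, a chemokine that draws monocytes. Its values were 9.43, 14.9, 14.3, 14.8 and 12.5 in the MF+Ind+CCh libraries, against 143, 211, 249, 279 and 172 in the Ind+CCh libraries. Every library with mometasone stood far under every library without it, and the fall was 14.7-fold (log2 -3.88 ± 0.14, adjusted p = 4.40e-21). Of 22 inflammatory cytokines and chemokines listed only 6 passed the filter, of which 0 rose and 3 fell, where 12.8% of all genes fell. The median of the 6 was -0.69, and 1 of them, IL6, passed through the Ind+CCh group only. IL11, a cytokine of the interleukin-6 family, had 3.42, 4.85, 5.82, 8.70 and 4.53 in the MF+Ind+CCh libraries, against 19.8, 30.9, 52.4, 30.9 and 18.6 in the Ind+CCh libraries, a 4.72-fold fall (log2 -2.24 ± 0.16, adjusted p = 1.58e-13). IL6 was low in both groups, with 0.200, 0.230, 0.180, 0.510 and 0.660 in the MF+Ind+CCh libraries, against 1.79, 1.60, 2.26, 2.78 and 2.24 in the Ind+CCh libraries, and fell by 1.21 on the log2 scale (adjusted p = 6.07e-06, limma). CXCL2, CSF1 and IL32 were not called, at 0.15, 0.03 and -0.17. The other 16, CXCL8, IL1B, TNF and CSF2 among them, were below the filter.

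Other strongly lowered genes encode secreted proteins, receptors, a membrane protein and enzymes. NPPB, the precursor of B-type natriuretic peptide, averaged 8.81 ± 3.22 in MF+Ind+CCh libraries and 65.5 ± 13.7 in Ind+CCh libraries, a 6.97-fold fall. TNFRSF11B, the decoy receptor osteoprotegerin, fell 6.17-fold, and HTR1D, a serotonin receptor, 5.34-fold. TM4SF1, a membrane protein of the tetraspanin-like kind, had 26.6, 36.7, 11.6, 30.1 and 28.0 in the MF+Ind+CCh libraries, against 164, 211, 132, 237 and 184 in the Ind+CCh libraries, a 7.03-fold fall. The third MF+Ind+CCh replicate was the lowest of all. PLK2, a stress-induced kinase, fell 4.74-fold and STAMBPL1, a deubiquitinase, 4.38-fold. The highest adjusted p of the 12 most lowered genes was 5.52e-12.

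Immediate early genes, which cells switch on within minutes of a stimulus, moved in both directions. Of 24 measured, 6 rose and 11 fell, with a median of -0.22. The AP-1 subunits moved apart: FOSL1 had 8.83, 9.72, 7.98, 8.80 and 7.29 in the MF+Ind+CCh libraries, against 47.0, 47.0, 51.2, 45 and 32 in the Ind+CCh libraries, a 4.73-fold fall, while FOSL2 rose by 1.12. JUN had 17.6, 14.8, 18.8, 15.4 and 17.2 in the MF+Ind+CCh libraries, against 60.3, 64.1, 74.5, 54.8 and 57.5 in the Ind+CCh libraries, with no overlap and a change of -1.83 ± 0.10. FOS, at 0.09, JUNB, at -0.19, and JUND, at -0.26, were not called. FOSL2, FOS, JUNB and JUND were named after their values were seen, to complete the AP-1 subunits. IER3, a survival protein, fell 6.12-fold, with 3.86, 2.77, 4.46, 3.06 and 5.49 in MF+Ind+CCh libraries and 24.9, 20.7, 44.5, 26.5 and 31.1 in Ind+CCh libraries. ZFP36, which destabilises cytokine messages, rose by 1.40 ± 0.0917, with 30.7 ± 4.68 in MF+Ind+CCh libraries and 11 ± 1.65 in Ind+CCh libraries.

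The feedback genes of MAP kinases and of NF-kB also split. Of 15 MAP kinase feedback genes measured, 3 rose and 5 fell, or 3 and 3 without the replicate block and also 3 and 3 without replicate 3, and the median was -0.13. ERRFI1, an inhibitor of the EGF receptor, rose by 2.00 ± 0.14. The phosphatase genes DUSP8 and DUSP14 fell by 1.24 ± 0.15 and 1.07 ± 0.0685 on the log2 scale. Of 15 NF-kB subunit and feedback genes, 4 rose and 4 fell, or 2 and 2 without the block, and 2 and 5 without replicate 4, and the median was 0.08. NFKBIA, the inhibitor that holds NF-kB in the cytoplasm, had 83.8, 77.5, 87.2, 81.4 and 100.4 in the MF+Ind+CCh libraries, against 16.3, 14.9, 19.7, 16 and 20.8 in the Ind+CCh libraries, a 4.72-fold rise (log2 2.24 ± 0.0516, adjusted p = 3.57e-27). BIRC3, an inhibitor of apoptosis, rose 7.68-fold, with 64.0 ± 11.2 in MF+Ind+CCh libraries and 7.55 ± 2.08 in Ind+CCh libraries. BCL3, an atypical member of the inhibitor family, changed by -1.16 ± 0.16 and the subunit RELB by -0.53 ± 0.11.

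**Figure D2:**
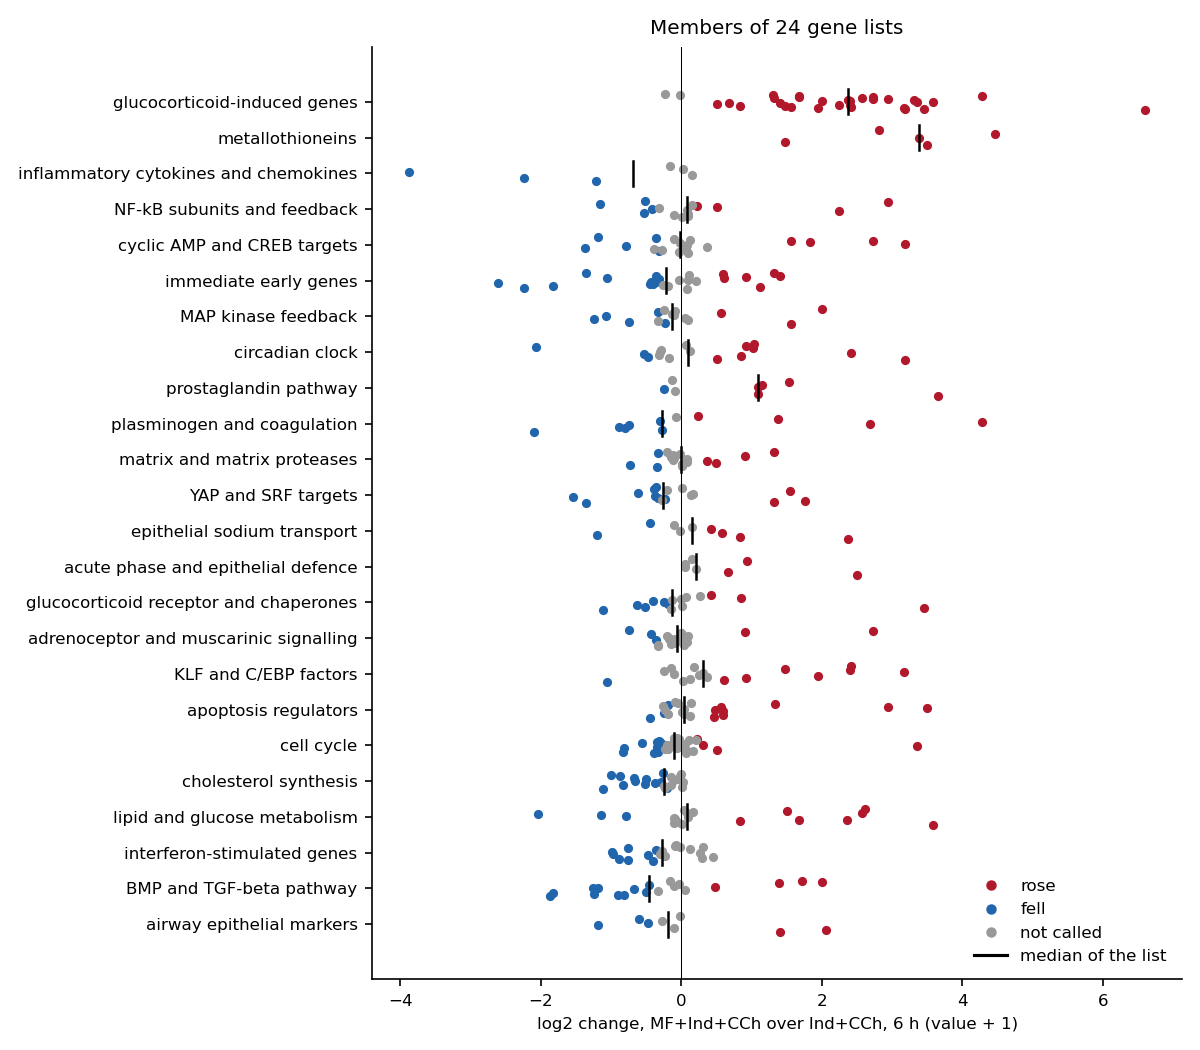
Log2 change of each measured gene of 24 gene lists at 6 h, MF+Ind+CCh over Ind+CCh. Each point is 1 gene, red where it rose, blue where it fell and grey where it was not called, and the black line is the list's median. The glucocorticoid-induced genes and the metallothioneins lie to the right, with medians of 2.37 and 3.38, the 6 cytokines have the lowest median (-0.69), and most other lists straddle 0.

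Among genes listed as targets of cyclic AMP, the path that indacaterol stimulates, 4 of 19 measured rose and 5 fell. Without the replicate block 4 rose and 3 fell, and the median of the list was -0.02. Whether the listed genes, KRT17 among them, are targets of cyclic AMP in these cells was not tested. The 4 that rose are PER1, RGS2, DUSP1 and CGA, the alpha subunit of glycoprotein hormones, and 3 of them are also on the list of glucocorticoid-induced genes. KRT17, a basal keratin on the cyclic AMP list, had 909, 998, 494, 1029 and 1048 in the MF+Ind+CCh libraries, against 1879, 2466, 1078, 2334 and 2547 in the Ind+CCh libraries. The groups did not overlap, although the highest library with mometasone, at 1048, was close to the lowest without it, at 1078. The change was -1.19 ± 0.14 (adjusted p = 5.02e-08). PDE4B, which degrades cyclic AMP and was at 1 or above in Ind+CCh libraries only, changed by -1.37, while NR4A1, at 0.09, and CREM, at -0.27, were not called. PDE4B, NR4A1 and CREM were named after their values were seen.

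Most measured genes of adrenoceptor and muscarinic signalling were not called, while the receptor gene NR3C1 fell and RGS2 rose. NR3C1, the receptor for mometasone itself, had 18.8, 23.4, 29.9, 23.4 and 18.1 in the MF+Ind+CCh libraries, against 38.8, 56.3, 76.7, 49.5 and 35.2 in the Ind+CCh libraries. All libraries with mometasone lay under all those without it (log2 -1.11 ± 0.12, adjusted p = 2.13e-09). CHRM3, a muscarinic receptor, was near 1 throughout, with 0.640, 1.07, 1.12, 0.85 and 0.860 in the MF+Ind+CCh libraries, against 1.51, 1.99, 1.47, 1.04 and 1.02 in the Ind+CCh libraries, and was not called (log2 -0.33, adjusted p = 0.0726) except with array weights. CHRM1, CHRM2, CHRM4 and CHRM5 were below the filter. Of 22 measured genes of adrenoceptor and muscarinic signalling 2 rose and 3 fell, with a median of -0.07, a share of calls near that of all genes. Only 1 fell without the replicate block, and likewise without replicate 1 or without replicate 2. RGS2, which limits signalling by the G protein of muscarinic receptors, had 121, 113, 77.8, 116 and 131 in the MF+Ind+CCh libraries, against 16.1, 14.4, 13.1, 15.3 and 20.4 in the Ind+CCh libraries, a 6.65-fold rise. PLCB4, a phospholipase C, rose by 0.91 ± 0.10, and RGS4, another limiter, changed by -0.75 ± 0.20. ARRB1, an arrestin, passed narrowly, at -0.43 (adjusted p = 0.0302), and lost its call without the block and without replicate 1, 2, 4 or 5.

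Chaperones that hold the receptor ready fell in part. Of 15 measured genes of the receptor, its chaperones and cofactors, 3 rose and 6 fell, with a median of -0.13. The counts were 2 and 4 without the replicate block, and likewise without replicate 3 or without replicate 4. NR3C1 itself and PTGES3 are among the 6. HSPA1A, a heat shock protein whose close copy HSPA1B could share its reads, had 141, 118, 141, 117 and 168 in the MF+Ind+CCh libraries, against 225, 193, 220.2, 162 and 269 in the Ind+CCh libraries. One MF+Ind+CCh library, at 168, lay above the lowest Ind+CCh library, and the change was -0.63 ± 0.0747. NCOA3, a coactivator, rose by 0.85 ± 0.0998.

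The plasminogen and coagulation genes held some of the largest changes in both directions. Of 11 measured, 4 rose and 6 fell, with a median of -0.27. PLAT, the tissue-type plasminogen activator, had 224, 417, 234, 355 and 170.2 in the MF+Ind+CCh libraries, against 30.3, 54.5, 43.2, 51.9 and 29.3 in the Ind+CCh libraries, a 6.42-fold rise (log2 2.68 ± 0.11, adjusted p = 5.29e-20). The replicates of PLAT spread more than those of TSC22D3, yet the groups did not overlap. F3, tissue factor, which starts coagulation, had 5.94, 6.73, 5.42, 6.62 and 5.74 in the MF+Ind+CCh libraries, against 24.2, 30.3, 54.5, 30.0 and 17.8 in the Ind+CCh libraries, a 4.28-fold fall (log2 -2.10 ± 0.17, adjusted p = 5.52e-12). Its values were tight with mometasone and spread without it. THBD, thrombomodulin, an anticoagulant receptor, rose by 1.38 ± 0.12. PLAU, the urokinase activator, at -0.88, and its receptor PLAUR, at -0.74, were among the 6 that fell and were named after their values were seen.

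Of 8 measured genes of the prostaglandin pathway, 5 rose and 1 fell, with a median of 1.09. PLA2G4A, the cytosolic phospholipase that frees arachidonic acid, had 26.2, 23.8, 29.8, 21.3 and 23.1 in the MF+Ind+CCh libraries, against 1.59, 0.71, 0.970, 0.900 and 1.17 in the Ind+CCh libraries, a 12.5-fold rise (log2 3.65 ± 0.14, adjusted p = 6.29e-21). PTGES, which makes prostaglandin E, rose by 1.09 ± 0.13, its receptor PTGER4 by 1.15 ± 0.15, and HPGD, which degrades prostaglandins, by 1.54 ± 0.17. The cyclooxygenase genes PTGS1 and PTGS2 were below the filter. The fifth rise was that of the receptor gene PTGER2, at 1.09. The 1 fall was that of PTGES3, at -0.24, a prostaglandin E synthase that is also the receptor co-chaperone p23, and its call was lost without the replicate block, with every library scaled to 1 sum, and without replicate 1, 3 or 4. PTGER2 and PTGES3 were named after their values were seen. Of these 8 genes PTGER2 and HPGD were at 1 or above in MF+Ind+CCh libraries only, and so had to differ.

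Clock genes, transcription factors and metabolic genes changed in both directions. Of 16 clock genes measured 7 rose and 3 fell, or 7 and 1 without the block, with a median of 0.09. NPAS2, a partner of the clock activator, had 25.5, 30.6, 54.6, 38.6 and 22.3 in the MF+Ind+CCh libraries, against 3.66, 5.06, 6.35, 6.27 and 5.64 in the Ind+CCh libraries, and rose by 2.41 ± 0.16. BHLHE40, a clock repressor, had 2.83, 9.48, 4.49, 5.01 and 2.28 in the MF+Ind+CCh libraries, against 22.7, 27.2, 22.8, 23.2 and 13.3 in the Ind+CCh libraries, and changed by -2.06 ± 0.20. Of 17 Krüppel-like and C/EBP factors 7 rose and 1 fell, with a median of 0.32, and 7 and 2 without replicate 3. ZBTB16 is among them and was at 1 or above in MF+Ind+CCh libraries only. The 1 that fell was KLF2, at -1.06, named after its value was seen. CEBPB, a factor of the acute phase response, had 85.5, 91.3, 91.0, 83.8 and 108 in the MF+Ind+CCh libraries, against 16.1, 16.3, 16.9, 14.1 and 19.7 in the Ind+CCh libraries, a 5.28-fold rise. Of 19 genes of lipid and glucose metabolism 7 rose and 3 fell, with a median of 0.09. Of the 19, PDK4 and IGFBP1 were at 1 or above in 1 group only, and so had to differ. PDK4, which closes pyruvate dehydrogenase, rose 12-fold, with 14.9 ± 6.72 in MF+Ind+CCh libraries and 0.246 ± 0.147 in Ind+CCh libraries. ACSL1, which activates fatty acids, rose 6.14-fold, LPIN1, a phosphatidate phosphatase, 5.12-fold and IRS2, an insulin receptor substrate, 5.92-fold. The glucose transporters SLC2A3, at -2.03, and SLC2A1, at -1.15, were 2 of the 3 that fell and were named after their values were seen.

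Calls among cholesterol synthesis genes depended on the pairing of replicates. Of 22 measured, 0 rose and 12 fell with the replicate block, with a median of -0.25, and 1 fell without it. HMGCS1, an early enzyme of the path, had 196, 571, 296, 586 and 135 in the MF+Ind+CCh libraries, against 577, 1199, 611, 1161 and 259.6 in the Ind+CCh libraries. The groups overlapped, since replicates 2 and 4 were high with and without mometasone, while each MF+Ind+CCh library was under its same-numbered Ind+CCh library. The change was -1.12 ± 0.12 (adjusted p = 2.81e-09), and adjusted p = 0.173 without the block. INSIG1, the sterol sensor, had 184, 358, 181, 306 and 141 in the MF+Ind+CCh libraries, against 408, 757, 321, 690.4 and 244 in the Ind+CCh libraries, with the same order within pairs and adjusted p = 2.62e-11, or 0.0674 without the block. IDI1, an isomerase of the path, changed by -0.83 ± 0.0690.

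Genes of growth and tissue structure moved in mixed fashion. Of 29 cell cycle genes 4 rose and 10 fell, or 1 and 6 without the block, with a median of -0.10. The share that rose with the block was near the 12.3% of all genes. CDKN1C, an inhibitor of cyclin-dependent kinases, had 71.5, 61.6, 47.9, 56.1 and 65.7 in the MF+Ind+CCh libraries, against 6.76, 4.86, 2.62, 4.37 and 7.48 in the Ind+CCh libraries, a 10.2-fold rise and the largest change of the list. CCND1, cyclin D, changed by -0.84 ± 0.14 and its kinase partner CDK6 by -0.82 ± 0.0919, while the mitotic kinase AURKA changed by -0.56 ± 0.0712. Of 21 apoptosis regulators 8 rose and 3 fell, or 6 and 1 without the block, with a median of 0.04. HRK, which promotes cell death, rose 11.3-fold, with 22 ± 2.78 in MF+Ind+CCh libraries and 1.05 ± 0.331 in Ind+CCh libraries. The protective genes CFLAR and MCL1 rose by 1.34 ± 0.0767 and 0.60 ± 0.0741. The 3 that fell, BCL2, at -0.45, BAD, at -0.24, and BIRC5, at -0.19, also include both protective and death-promoting members, and were named after their values were seen. BAD and BIRC5 lost their calls without the block, and BAD also without replicate 3, 4 or 5.

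Of 16 targets of YAP and SRF, factors of the actin cytoskeleton and cell shape, 3 rose and 8 fell, or 3 and 5 without the block or without replicate 3, with a median of -0.25. The related genes CCN1 and CCN2 went opposite ways. CCN1 had 102, 129, 133, 144 and 108 in the MF+Ind+CCh libraries, against 265, 359, 326, 398 and 243 in the Ind+CCh libraries, a change of -1.35 ± 0.0622, and CCN2 had 161, 175, 259.6, 174 and 204 in the MF+Ind+CCh libraries, against 62.9, 85.2, 95.8, 83.1 and 62.1 in the Ind+CCh libraries, a change of 1.31 ± 0.11. Neither gene had overlapping groups. ANKRD1, a muscle and stress protein, rose by 1.76 ± 0.0886 and VCL, vinculin of focal adhesions, by 1.55 ± 0.11, while AJUBA, an adhesion scaffold, changed by -1.54 ± 0.0634. Of 18 matrix genes 4 rose and 3 fell, or 1 and 2 without the block, with a median of -0.01. LOX, a collagen crosslinker, at 0.90, and COL5A1, at 0.49, lost their calls without it.

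In the BMP and TGF-beta pathway 4 of 19 measured genes rose and 10 fell, with a median of -0.46. BMP4, a ligand, had 11, 13.0, 11.8, 14.8 and 11.5 in the MF+Ind+CCh libraries, against 43.6, 43.2, 62.5, 42.7 and 49.7 in the Ind+CCh libraries, a change of -1.87 ± 0.0912, and NOG, which captures BMP ligands, changed by -1.82 ± 0.16. A ligand and its antagonist were thus both lower. TGFBR3, a co-receptor, rose by 2.00 ± 0.14 and LTBP1, which stores latent TGF-beta in the matrix, by 1.72 ± 0.16. Of 19 interferon-stimulated genes 0 rose and 8 fell, or 0 and 5 without the block, with a median of -0.27. Without replicate 2 or without replicate 5, 1 rose and 6 fell. IFIT3, an antiviral protein, had 4.93, 2.27, 1.82, 2.07 and 2.72 in the MF+Ind+CCh libraries, against 5.85, 5.86, 5.27, 5.39 and 6.16 in the Ind+CCh libraries, with no overlap, and changed by -0.89 ± 0.13. IRF1, a transcription factor, changed by -0.76 ± 0.0918 and ISG20, a nuclease, by -0.98 ± 0.18. OAS1, another antiviral enzyme, lost its call without the block (adjusted p = 0.0568).

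Of 9 measured genes of sodium transport 4 rose and 2 fell, or 4 and 1 without the block, with a median of 0.15. SCNN1A, a subunit of the epithelial sodium channel, had 13.1, 11.8, 15.7, 10.2 and 11.9 in the MF+Ind+CCh libraries, against 1.39, 2.69, 1.72, 1.5 and 0.940 in the Ind+CCh libraries, a 5.18-fold rise, and NEDD4L, the ligase that removes the channel, changed by -1.19 ± 0.0955. The channel's other subunits SCNN1B and SCNN1G were below the filter. Of 7 measured acute phase and defence genes 3 rose and 0 fell, with a median of 0.20. SAA1, serum amyloid A, had 31.8, 31.5, 26.3, 22.9 and 24.9 in the MF+Ind+CCh libraries, against 4.78, 2.33, 2.02, 4.97 and 8 in the Ind+CCh libraries, a 5.65-fold rise. SAA1 has a close copy, SAA2, which was below the filter, and the counting could divide reads between them. DMBT1, a mucosal defence protein, rose by 0.94 ± 0.14. LCN2, an iron-scavenging lipocalin, stayed below 2 in all 10 libraries, with a change of 0.67 (adjusted p = 0.00522), and lost its call in a fit of the compared groups only and without replicate 2 or 3.

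The labelled cell type was checked against markers. Of 12 airway epithelial markers, 8 passed the filter, of which 2 rose and 3 fell, with a median of -0.19. KRT19, EPCAM and TP63 were below 1 in all 10 libraries. KRT8, KRT17 and KRT18 were present, and the summed level of the 12 ran between 935 and 1690 in MF+Ind+CCh libraries and between 1642 and 3267 in Ind+CCh libraries, most of it KRT17. KRT7, a keratin of simple epithelium, had 84.8, 35.4, 34.8, 35.1 and 77.4 in the MF+Ind+CCh libraries, against 26.0, 7.77, 4.35, 9.06 and 18.8 in the Ind+CCh libraries, and rose by 2.06 ± 0.17, and KRT5, which was at 1 or above in MF+Ind+CCh libraries only and so had to differ, by 1.41 ± 0.19. Markers of fibroblasts and smooth muscle summed to between 1730 and 2066 with mometasone and between 1399 and 1784 without it, most of it VIM, while PDGFRA, LUM and DES were below 1 in every library. Of these 9 markers 5 passed the filter, of which 1 rose and 0 fell. THY1, a marker of fibroblasts, was also present, between 106 and 146.6 in the MF+Ind+CCh libraries. VIM changed by 0.26, a call lost without the block, and 4 of 5 endothelial markers were below 1 in every library of both groups. Leukocyte markers summed to between 16.8 and 20.6 with mometasone and between 17.7 and 22.6 without it, and CD68 was the 1 of 7 that passed the filter, with CD3E, MS4A1 and LYZ below 1 in every library. The part of these marker shifts in other results was not tested.

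The same steroid without the agonists gave a reference for each gene. MF against NS called 3709 genes (29.1%), 1975 higher and 1734 lower, from libraries that share none with the comparison above. Scaling every library to 1 sum moved that split to 1117 higher and 2217 lower. Of the genes raised by adding mometasone to both agonists, 1156 were also raised by mometasone alone, which is 73.8% of the first list and 58.5% of the second. Of the genes lowered, 1159 were also lowered, 71.2% of the first and 66.8% of the second. Only 2 genes rose with the agonists and fell without them, and 2 the reverse. A gene missing from 1 list is not shown to differ, so the difference was tested itself.

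The change with mometasone differed between cells with and without both agonists for 146 genes (1.15%), 86 with a higher and 60 with a lower value in the agonist background. Without the replicate block 34 genes were called, all among the 146, and leaving out 1 replicate number gave 91 to 105, with 94 without replicate 2, 92 without replicate 4 and 91 without replicate 5. Scaling every library to 1 sum gave 69 higher and 32 lower. By direction of the fitted changes, 58 genes rose more with the agonists present, 22 rose less, 27 fell more and 12 fell less. A further 16 had a rise with the agonists and a fall without them, and 11 the opposite. Of the 146, 129 were called in the agonist background itself. Of the 31 measured glucocorticoid-induced genes, 8 differed.

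PLAT, the tissue-type plasminogen activator, had the largest positive difference. It averaged 280.0 ± 102 in MF+Ind+CCh libraries, 41.8 ± 11.8 in Ind+CCh libraries, 51.4 ± 10.7 in MF libraries and 32.9 ± 7.35 in NS libraries (mean ± SD, n = 5 each). The rise was 6.42-fold with the agonists and 1.55-fold without them, a difference of 2.05 ± 0.16 on the log2 scale (adjusted p = 1.46e-10). RGS2 averaged 112 ± 20.2 in MF+Ind+CCh libraries, 15.9 ± 2.79 in Ind+CCh libraries, 16.3 ± 3.83 in MF libraries and 6.91 ± 1.29 in NS libraries. Of these 4 groups the one with all 3 agents stood apart, and the difference was 1.61 ± 0.14 (adjusted p = 4.61e-09). CGA was below 1 on average in the MF group, at 0.336 ± 0.379, and in the NS group, at 0.202 ± 0.323, but averaged 15.4 ± 3 in MF+Ind+CCh libraries and 3.62 ± 1.01 in Ind+CCh libraries. Its difference was 1.69 ± 0.26, a call lost with a pseudocount of 0.1 (adjusted p = 0.63).

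IL1RL1, the receptor of interleukin-33, showed a rise of 4.08-fold with the agonists and 1.26-fold without them, the second not called. It averaged 4.60 ± 1.77 in MF+Ind+CCh libraries, 0.314 ± 0.0546 in Ind+CCh, 0.724 ± 0.256 in MF and 0.356 ± 0.0907 in NS libraries. IL1RL1 passed the filter through MF+Ind+CCh libraries only, so its rise with the agonists had to appear, and its difference follows in part from the filter. LTBP1 differed by 1.5 ± 0.22 and CSGALNACT1, an enzyme of chondroitin sulphate synthesis, by 1.48 ± 0.20. CSGALNACT1 changed by 1.18 with the agonists and by -0.29 without them, the second not called (adjusted p = 0.118). Larger rises with the agonists were also called for TSC22D3 (6.60 with and 5.79 without them), PDK4 (3.59 and 2.14) and HRK (3.5 and 2.23).

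**Figure D3:**
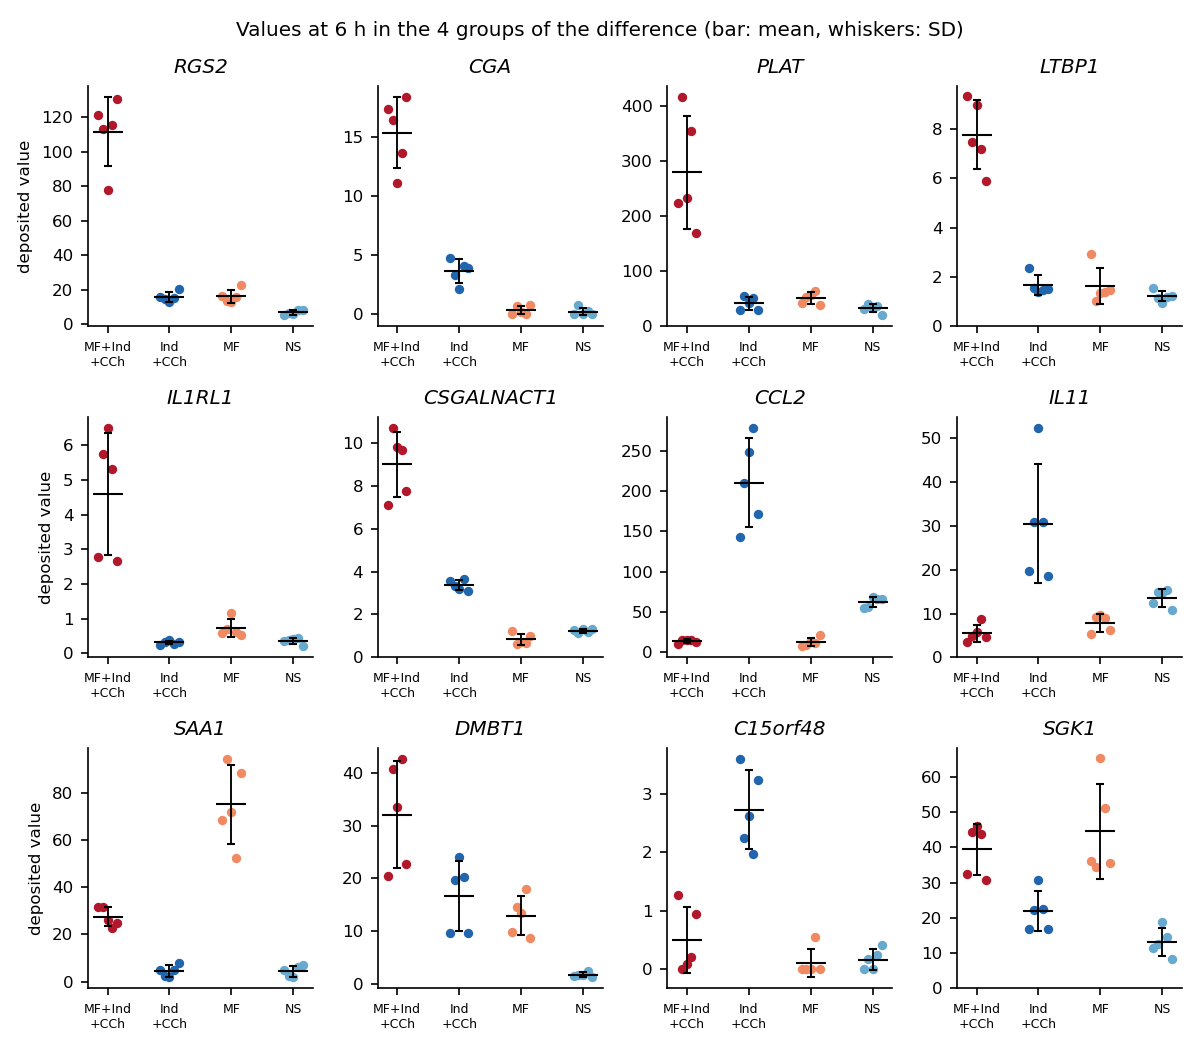
Deposited values at 6 h of 11 genes with the largest called differences and of SGK1 in MF+Ind+CCh, Ind+CCh, MF and NS libraries (left to right). Each point is 1 library, the bar is the mean and the whiskers are the SD over 5 libraries. RGS2, PLAT, LTBP1 and IL1RL1 stand high in MF+Ind+CCh libraries and low in the other 3 groups, while CCL2 is highest in Ind+CCh libraries and near the same low level in both groups with mometasone.

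At the other end, CCL2 and IL11 fell further with the agonists present. CCL2 averaged 13.2 ± 2.31 in MF+Ind+CCh libraries, 211 ± 55.2 in Ind+CCh libraries, 12.1 ± 5.27 in MF libraries and 62.0 ± 5.93 in NS libraries. Both groups with mometasone lay near one level, while the groups without it differed, and the difference in change was -1.53 ± 0.20 (adjusted p = 1.09e-05). For IL11 the 4 means, in the same order, were 5.46 ± 2.00, 30.5 ± 13.6, 7.87 ± 1.99 and 13.6 ± 1.97, with a difference of -1.5 ± 0.23. That call was lost without the replicate block (adjusted p = 0.0640). C15orf48, a small mitochondrial protein, averaged 0.506 ± 0.569, 2.73 ± 0.679, 0.110 ± 0.246 and 0.168 ± 0.175 in this order. It changed by -1.37 with the agonists and by -0.08 without them, the second not called. The call of its difference, -1.28 ± 0.26, was lost with a pseudocount of 0.1 and without replicate 3.

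Smaller rises with the agonists were called for 2 of the 7 measured acute phase and defence genes, SAA1 and DMBT1. SAA1 averaged 27.5 ± 4 in MF+Ind+CCh libraries, 4.42 ± 2.42 in Ind+CCh libraries, 75.2 ± 16.6 in MF libraries and 4.39 ± 2.34 in NS libraries. Its difference of -1.42 ± 0.31 (adjusted p = 0.0107) lost its call in 5 of 17 alternatives, among them the fit without the block (adjusted p = 0.115) and that without replicate 5. DMBT1 averaged 32 ± 10.1, 16.7 ± 6.62, 13.0 ± 3.75 and 1.76 ± 0.496 in the same order, and differed by -1.38 ± 0.20, or with adjusted p = 0.328 without the block. CEBPB rose 5.28-fold with the agonists and 10.4-fold without them, a difference of -0.97 ± 0.12 (adjusted p = 2.38e-06). SGK1, a kinase that keeps sodium channels at the surface, rose 1.79-fold and 3.21-fold in the same order, a difference of -0.84 ± 0.18.

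The same steroid was also added to each agonist alone, with the other left out. The change of PLAT with mometasone was 2.70 on indacaterol alone and 0.86 on carbachol alone, against 2.68 on both and 0.64 on neither. For RGS2 these changes were 2.67, 0.97, 2.73 and 1.12, and for LTBP1 they were 1.57, 0.24, 1.72 and 0.21. SAA1 rose by 2.19 on indacaterol alone and 3.97 on carbachol alone, against 2.50 on both and 3.92 on neither. In each of these 4 genes the value on both agonists lay nearer to that on indacaterol, and the contrast between single agonists was not tested.

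**Figure D4:**
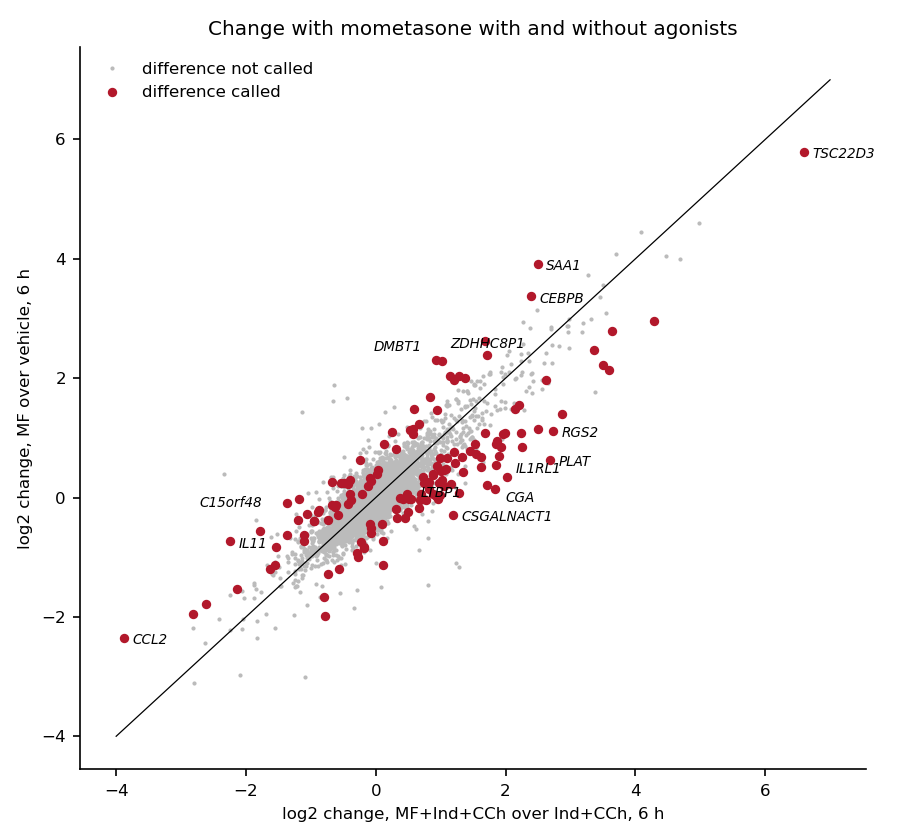
Log2 change of 12734 genes with mometasone in the presence of indacaterol and carbachol (horizontal axis, MF+Ind+CCh over Ind+CCh) and in their absence (vertical axis, MF over NS) at 6 h. Each point is 1 gene, red for the 146 whose difference was called, and the line marks equal change. TSC22D3 lies at 6.60 and 5.79, PLAT at 2.68 and 0.64, and CCL2 at -3.88 and -2.35.

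Between 2 h and 6 h the change with mometasone on both agonists differed for 1505 genes (11.8%), 684 upwards and 821 downwards. Without the replicate block 354 were called, all among the 1505, and with the compared groups only, 812. Leaving out 1 replicate number gave 890 to 1298, with 936 without replicate 3 and 890 without replicate 4. Scaling every library to 1 sum moved the split to 225 upwards and 946 downwards. The median of all genes went from 0.019 to -0.13, so directions in this contrast are relative to that scale. CNR1 averaged 0.515 ± 0.172, 2.66 ± 1.69, 35.1 ± 15.7 and 38.2 ± 20.1 at 1, 2, 6 and 18 h in MF+Ind+CCh libraries (n = 4, 5, 5 and 3), and at most 0.266 in Ind+CCh libraries (n = 5, 5, 5 and 4). Its change at 6 h exceeded that at 2 h by 3.41 ± 0.28 (adjusted p = 6.20e-15). PLA2G4A averaged 0.733 ± 0.237, 2.24 ± 0.880, 24.8 ± 3.29 and 12.5 ± 1.94 over the same times with mometasone, highest at 6 h. The change also grew for CYP4B1 (by 2.67), MAP2, a protein of neuronal microtubules (by 2.61), and PRODH, proline dehydrogenase (by 2.51). MAP2 showed no called difference at 2 h, where its change was 0.04, and rose by 2.65 ± 0.17 at 6 h.

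Several falls were larger at 6 h than at 2 h. VDR, the vitamin D receptor, averaged 22.1 ± 3.71 at 2 h in MF+Ind+CCh libraries against 22.5 ± 6.92 in Ind+CCh libraries, and at 6 h 3.01 ± 0.830 against 16.4 ± 6.78. Its change was 0.01 at 2 h and -2.06 at 6 h (difference -2.07 ± 0.16, adjusted p = 1.89e-16). GALNT3, which starts mucin-type glycosylation, behaved alike, with -0.02 at 2 h and -2.04 at 6 h. TNFRSF11B changed by -0.58 at 2 h and -2.62 at 6 h, and NPPB by -0.71 and -2.80. DUSP5, a phosphatase of ERK, changed direction: at 2 h it averaged 95.9 ± 29 in MF+Ind+CCh libraries against 40.2 ± 13.4 in Ind+CCh libraries, and at 6 h 6.63 ± 0.773 against 11.8 ± 1.55. Its changes were 1.24 ± 0.10 (adjusted p = 3.12e-15) and -0.75 ± 0.0907 (adjusted p = 4.59e-08). IL6 fell by 2.72 at 2 h, when it averaged 6.20 ± 2.62 in MF+Ind+CCh libraries against 47.4 ± 18.7 in Ind+CCh libraries, and by 1.21 at 6 h, when it was below 3 in every library. At such levels the added 1 shrinks a fall, so the falls at 2 h and 6 h are not compared. The rise of ANKRD1 was 3.63 at 2 h and 1.76 at 6 h, a difference of -1.87 ± 0.13 (adjusted p = 2.78e-17).

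**Figure D5:**
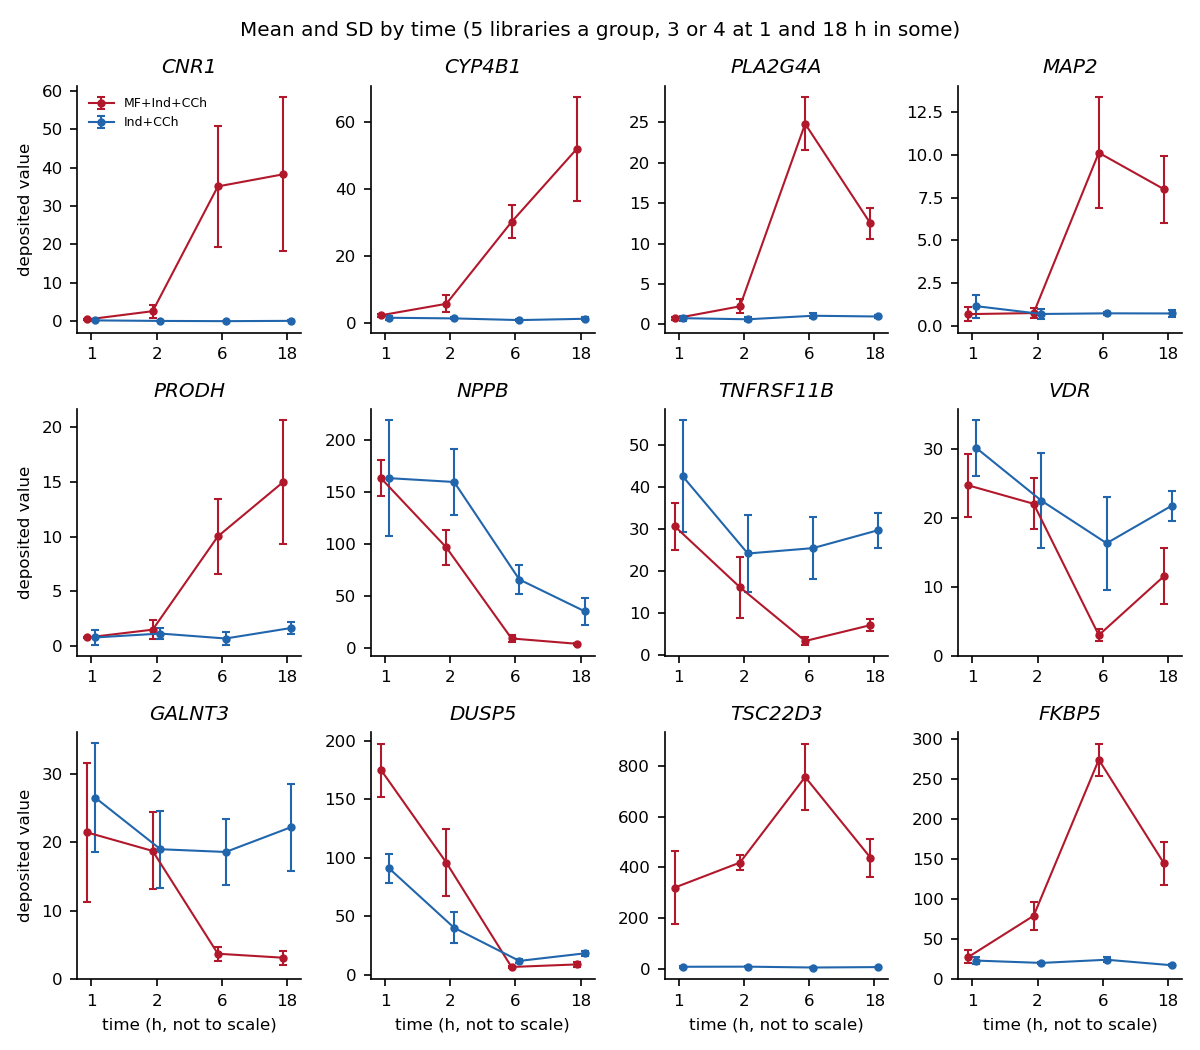
Mean deposited value (points) and SD (whiskers) at 1, 2, 6 and 18 h in MF+Ind+CCh libraries (red; n = 4, 5, 5 and 3) and Ind+CCh libraries (blue; n = 5, 5, 5 and 4) of the 10 genes with the largest called differences between 6 h and 2 h, and of TSC22D3 and FKBP5. CNR1, MAP2 and PLA2G4A separate between 2 and 6 h, VDR and GALNT3 separate downwards over the same span, and DUSP5 lies higher with mometasone at 1 and 2 h and lower at 6 h.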

How the data were processed

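Total RNA of BEAS-2B cells was extracted and sequenced on a NextSeq instrument with 2 kits, per the labels' protocols; the kit of each sample is not stated there. Tools named in the submitters' processing notes are STAR 2.4.2a and bcl2fastq 2.17.1.14, and the build is GRCh38. For the quantifier, annotation and strand setting nothing was given in the sources used here, so a gene and an antisense partner cannot be told apart. The authors deposited 1 value per gene and library and call it TPM. The sums differ between libraries, so the values were taken as a normalised signal deposited by the authors, not as TPM or counts, and depth is unknown. Of 160 columns, 10 were not used: 4 marked as excluded and 6 headed 8 h.

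Genes at 1 or above in at least 5 of the 10 compared libraries were kept (12734 of 29273). Values were tested on the scale log2(value + 1) using R 4.3.3 and limma 3.58.1 (eBayes with trend, Benjamini-Hochberg, adjusted p below 0.05). The model held all 40 libraries at 6 h in 8 groups with replicate number as a block (28 residual degrees of freedom). The contrast of 6 h and 2 h used 80 libraries with the block within time (56 degrees of freedom). The block was kept because same-numbered libraries of both groups deviated together, with correlations of 0.39, 0.46, 0.67, 0.30 and 0.76. The numbers come from the sample titles, which do not say what they stand for, and for replicates 1 and 4 another number correlated higher.

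Named genes are the 16 largest rises and 12 largest falls with all 5 pairs in 1 direction, up to 4 measured members of each of 27 gene lists with the largest changes, the 6 largest differences each way from mometasone without agonists, the 5 each way between 6 h and 2 h, and the agents' receptors. A few of the genes that this rule names are not reported here. Members, lists and tests were chosen with earlier results of these data known. Coordinates come from GENCODE 29 and promoters from RefSeq. Alternatives were scaling, filter, pseudocount, block, model, array weights and leaving out replicates or libraries over 20% mitochondrial. The scripts were checked on simulated data (Python 3.11.15, pandas 2.3.3, matplotlib 3.10.9).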

Additional observations from a re-analysis of the deposited data

Results flagged for a closer look

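Over 238 groups of 5 libraries examined, 15 held a library that stood apart by Dixon's criterion, which chance meets in about 1 in 20 groups. Among Ind+CCh libraries, replicate 5 was highest for MT1X (49.51, others 31.0 to 36.0), MT2A (1360.0, others 665 to 755) and RELB (13.68, others 6.57 to 7.81), and lowest for KLF9 (3.48, others 4.68 to 5.10). Replicate 3 of that group was highest for DUSP1 (118, others 58.5 to 72.6), DUSP8 (10.65, others 4.94 to 6.41) and DUSP5 (14.5, others 10.5 to 11.5). Replicate 1 was highest for LTBP1 (2.38, others 1.41 to 1.56) and replicate 4 for PRODH (1.65, others 0.20 to 0.59). Among MF+Ind+CCh libraries, replicate 3 was lowest for KRT17 (494.2, others 909 to 1048) and RELB (3.88, others 5.65 to 6.03). Replicate 1 was highest for IFIT3 (4.93, others 1.82 to 2.72) and KRT5 (3.80, others 2.00 to 2.52), replicate 2 for THY1 (146.6, others 106 to 117) and replicate 5 for IL32 (8.77, others 4.92 to 5.61).

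The change of 12 named genes with mometasone differed between cells with and without both agonists, by the contrast of changes in limma. On the log2 scale the difference was 1.61 for RGS2, 1.69 for CGA, 2.05 for PLAT, 1.5 for LTBP1, 1.69 for IL1RL1 and 1.48 for CSGALNACT1. It was -1.53 for CCL2, -1.5 for IL11, -1.42 for SAA1, -1.38 for DMBT1, -1.29 for C15orf48 and -1.28 for the pseudogene ZDHHC8P1. ZDHHC8P1 changed by 1.01 with the agonists and 2.29 without them, and its difference lost its call with a pseudocount of 0.1 and without replicate 2 or 3 (highest adjusted p = 0.108, limma). The differences of CGA, C15orf48, DMBT1, IL11 and SAA1 also lost their calls in at least 1 of 17 alternatives, and the other 6 kept theirs in all 17.

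The change of 10 named genes differed between 6 h and 2 h. The difference was 3.41 for CNR1, 2.67 for CYP4B1, 2.68 for PLA2G4A, 2.61 for MAP2 and 2.51 for PRODH. It was -2.09 for NPPB, -2.04 for TNFRSF11B, -2.07 for VDR, -2.03 for GALNT3 and -1.98 for DUSP5. These 10 calls held in all 17 alternatives.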

How the results depend on the processing

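Counts of calls depended most on the replicate block. Adding mometasone to both agonists called 3194 genes with the block, 1661 without the replicate block and 1324 with all times in one model and no block. Mometasone against vehicle called 3709, 1882 and 1361 in the same order. The difference between these backgrounds called 146 genes, 34 without the replicate block, 34 with all times in one model and 248 with array weights. The difference between 6 h and 2 h called 1505 genes, 354 without the block, 275 with all times in one model and 812 with the compared groups only. Leaving out 1 replicate number gave 2509 to 2967, 2885 to 3444, 91 to 105 and 890 to 1298 calls, in the order of these contrasts. The cause of these shifts was not tested. Fits that leave out a replicate number also hold fewer libraries.

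Of 112 named genes followed, 0 changed direction in any of 17 alternatives. Without the block LOX, COL5A1, ARRB1, HMGCS1, INSIG1, IDI1, OAS1 and VIM lost their calls. With all times in one model RELB, LOX, COL5A1, DMBT1, PLCB4, ARRB1, HMGCS1 and VIM did. In the comparison of MF+Ind+CCh with Ind+CCh no call of these 112 was lost with either other pseudocount, either other scaling, no trend, array weights, the filter over all libraries or without the libraries over 20% mitochondrial. Those were 6, with 1 at 6 h, which is in neither compared group. Another, replicate 1 of Ind+CCh at 2 h, with 28.3% mitochondrial values, is in the contrast of 6 h and 2 h. Without these 6 libraries 3433, 3981, 158 and 1365 genes were called, and 1201 of the 1365 were among the 1505. Of 12 called genes named after their values were seen, PTGES3 lost its call with scaling to 1 sum, BAD without a filter, and PTGES3, BAD and BIRC5 without the block. Unknown depth limits statements on genes near a value of 1.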

Other observations

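Values of several gene families outside the lists above, with mometasone on both agonists at 6 h, are given beside the share of all genes that rose (12.3%) and fell (12.8%). The families were chosen after values were seen, so their counts describe these libraries and no more. Of 21 measured FOX genes, forkhead transcription factors, 5 rose and 3 fell. FOXO1, a factor of fasting and insulin signalling, averaged 28.8 ± 4.56 in MF+Ind+CCh libraries and 3.96 ± 0.777 in Ind+CCh libraries (SD, n = 5 each), a log2 change of 2.59 (limma, adjusted p = 5.35e-19). FOXO3 rose by 1.64, FOXC2 by 2.37 and FOXL1 by 2.15, while FOXO4 was not called, at -0.04. The 3 that fell were FOXO6, at -0.86, FOXE1, at -0.61, and FOXC1, at -0.37. Of 11 measured Wnt ligands and secreted Wnt antagonists 7 rose and 2 fell. WNT4 averaged 33.4 ± 5.16 in MF+Ind+CCh libraries and 3.62 ± 1.60 in Ind+CCh libraries, and rose by 2.96. The antagonists DKK1 and FRZB rose by 2.08 and 2.21, so this ligand and both antagonists rose, while the antagonist SFRP1 fell by 0.61.

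Of 14 measured ephrins and their receptors, which guide cells by contact, 1 rose and 6 fell, or 0 and 5 without the replicate block. EPHA2 averaged 14.6 ± 1.64 in MF+Ind+CCh libraries and 44.8 ± 7.04 in Ind+CCh libraries, a change of -1.55, and its ligand EFNA1 changed by -1.37. Of 10 measured ADAMTS proteases 4 rose and 4 fell, from 1.94 for ADAMTS8 to -1.22 for ADAMTS10. Of 24 measured potassium channel genes 6 rose and 1 fell, or 4 and 1 without the block, a share of calls near that of all genes, with KCNIP3 at 2.71. Of 23 semaphorins and plexins 4 rose and 7 fell, with PLXNA2 at 2.14, SEMA3C at 2.12 and SEMA7A at -1.07. All 10 measured pregnancy-specific glycoprotein genes fell, 9 of them without the replicate block, with a median change of -0.88 on the log2 scale. Of the 10, PSG3, PSG8 and PSG11 were at 1 or above in Ind+CCh libraries only, and so had to differ. PSG5 averaged 124 ± 18.8 in MF+Ind+CCh libraries and 196 ± 24.2 in Ind+CCh libraries. These genes are near-identical copies, so reads may be shared among them and 10 falls are not 10 separate measurements.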
